A study of Mus musculus with 30 samples.

Results

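Bone morphogenetic proteins (BMPs) and transforming growth factors beta (TGF-β) are secreted ligands that bind pairs of type II and type I serine/threonine kinase receptors, and the activated receptors phosphorylate SMAD proteins that carry the signal to the nucleus. In endothelium the BMP branch runs through the type I receptor encoded by Acvrl1 and the coreceptor endoglin, whose human genes are mutated in hereditary haemorrhagic telangiectasia, and both branches induce their own inhibitory SMADs. Pericytes, the mural cells on the outer wall of brain capillaries, exchange these signals with endothelium. Here 10 genes of this pathway were described in RNA of brain microvascular fragments, which are short pieces of vessel that hold endothelial cells and whatever mural cells they keep. The genes were 2 ligands (Bmp6 and Tgfb1), 3 receptors or coreceptors (Acvrl1, Eng and Tgfbr2), 2 inhibitory SMADs (Smad6 and Smad7) and 3 genes that respond to the pathway (Id1, Id3 and Ccn2). They were chosen by name out of 18194 genes that the array covers, with earlier results of these data known. All probe sets paired with exactly 1 of them were taken, 16 in all, and the one with the highest mean over all arrays stood for its gene. All 10 genes passed the expression filter, a log2 signal above 4 on at least 3 arrays, as did 14 of the 16 probe sets and 11243 genes in all. The remaining 2, the dimmest probe sets of Tgfb1 and Tgfbr2, reached group means of 2.38 and 2.17 at most, close to the lowest value of the arrays.

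The 30 arrays fell into 8 groups. The ret mutants (4 arrays) were C57/B6/J mice of 7 to 10 months with the genotype pdgfbret/ret, in which both Pdgfb alleles lack the retention motif that holds platelet-derived growth factor B near the endothelial surface. Their ret controls (4 arrays, 8 to 10 months) were heterozygous, pdgfbret/+, and so carried the altered allele too, and no brain region was named for either. The R26P mutants, of a mixed C57/SV129 background, were Tie2Cre, R26P+/0, pdgfb-/-: they had no mouse Pdgfb, and a human PDGF-B transgene in the Rosa 26 locus was switched on by Tie2-driven Cre, which acts in endothelium and is known to act in blood cells as well. R26P controls (R26P+/0, pdgfb+/+) carried the same transgene in its silent state and no Cre. Mutants and controls of this model each gave 4 arrays of cerebrum and 4 of cerebellum. Wild-type C57/B6/J Notch3+/+ mice of 2 months gave 3 arrays of cerebellum and 3 of cerebrum. The labels contradict each other on the age of the R26P mice, which is 1 year in the titles and 2 months in the sample characteristics. Both mutants stand for a shortage of pericytes. In R26P its effect cannot be told apart from that of Cre and the active transgene, which only the mutants had.

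Several properties of the arrays bear on all of the results. The lowest value was 2.16 on each of the 24 arrays of both mutant models and 2.17 on each of the 6 wild-type arrays, so the wild-type arrays had been normalized separately and were compared only between their own regions. The mean of 12 pericyte markers lay between 6.53 and 7.63 on the ret mutant arrays and between 10.31 and 10.82 on their controls, between 6.85 and 8.41 against 11.25 to 11.50 in R26P cerebrum, and between 7.85 and 9.45 against 12.03 to 12.17 in R26P cerebellum, with 12 of 12 markers lower in each comparison. The mean of 14 endothelial markers was 13.25 in ret mutants and 13.19 in ret controls, 13.05 and 12.95 in R26P mutant and control cerebrum, and 13.15 and 12.90 in R26P mutant and control cerebellum. In ret mutants, R26P cerebrum and R26P cerebellum, 4, 6 and 5 of 7 astrocyte markers fell, as did 2, 7 and 3 of 8 smooth muscle markers and 2, 4 and 4 of 6 perivascular fibroblast markers, and 2, 1 and 0 of 3 blood leukocyte markers rose. The part of these lists in the results was not tested. Pdgfb itself was at 4.73 to 8.01 on the R26P mutant arrays, highest on both arrays of R26P mutant 3, against 12.05 to 12.86 on R26P controls. It was at 11.71 to 12.51 in ret mutants and 11.72 to 12.12 in ret controls, in which the messenger RNA is still made. Growth hormone transcript (Gh), a pituitary product, was above a log2 signal of 8 on 9 arrays: ret mutants 1, 2 and 4, R26P mutant cerebrum 2 and 3, R26P control cerebrum 2 and 3, R26P mutant cerebellum 3 and wild-type cerebrum 3. The sex labels of the 4 ret controls went against Xist, which was at 12.21 to 12.68 on the 3 arrays labelled male and at 2.32 on the one labelled female. In bulk RNA of this kind, fewer cells of a type and less RNA per cell cannot be told apart.

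The mutants, short of pericytes, had a large rise of the ligand gene Bmp6 and rises of Eng and Ccn2 in both models and both regions. Smad6 rose in R26P mutants. The responsive gene Id1 fell in ret mutants by a small amount, and Smad7 rose by a small amount in R26P cerebellum. The Id1 and Smad7 calls were lost in 11 and 12 of 19 alternative fits. Of the 10 genes, 3 rose, 1 fell and 6 did not pass the test in ret mutants, where 16.6% of all genes tested were called, 8% higher and 8.63% lower (limma, Benjamini-Hochberg adjusted p below 0.05 over 11243 genes). In R26P cerebrum 4 rose and 6 did not pass, with 18.7% of all genes called (8.35% higher, 10.3% lower), and in R26P cerebellum 5 rose and 5 did not pass, with 15.6% called (6.94% higher, 8.7% lower). The median absolute log2 change over the 10 genes was 0.56, 0.75 and 0.69 in ret mutants, R26P cerebrum and R26P cerebellum, against 0.21, 0.23 and 0.21 over all genes tested. As these genes were chosen with earlier results known, the counts and medians describe them and do not test the pathway. Without the arrays with Gh above 8, 1 of the 10 genes was called in ret mutants, with a single mutant array left and assumed to vary like the controls. In R26P cerebrum, with 2 arrays left per group, 1 was called, and in R26P cerebellum 4 were. Bmp6 kept its call in all 3, and the changes of the genes that lost the call were of like size, at 1.01 for Eng (adjusted p = 0.064), 2.74 for Ccn2 (0.068) and -0.58 for Id1 (0.27) in ret mutants, at 1.02 for Eng (0.072), 2.44 for Smad6 (0.052) and 2.06 for Ccn2 (0.059) in R26P cerebrum, and at 0.51 for Smad7 (0.078) in R26P cerebellum.

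**Figure D1:**
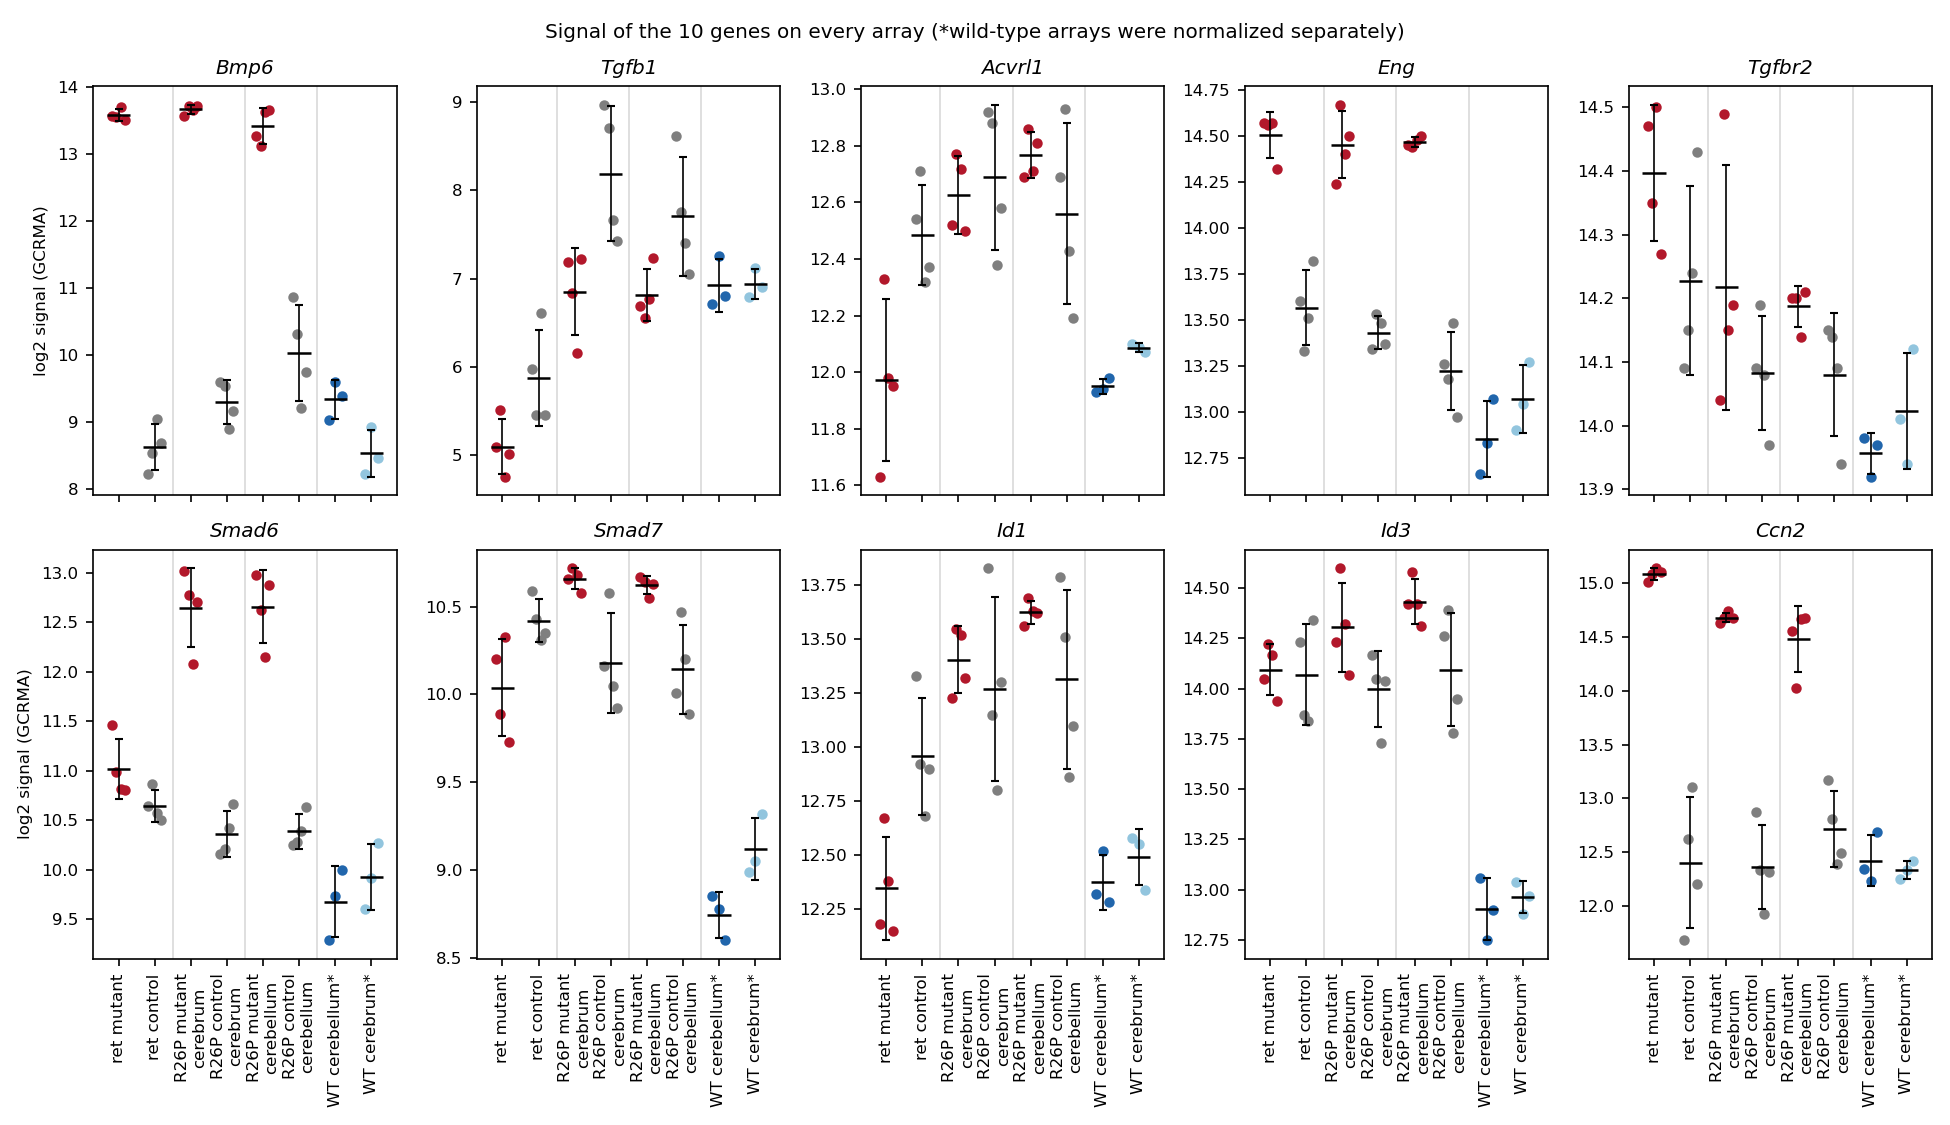
Log2 signal (GCRMA) of the brightest probe set of each of the 10 genes on all 30 arrays, with mutants in red, their controls in grey, wild-type cerebellum in dark blue and wild-type cerebrum in light blue. Points are arrays, the horizontal bar is the group mean and the whisker its SD (n = 4, or 3 for wild type). Axes start at different values for each gene, and wild-type arrays were normalized separately. For Bmp6 the 12 mutant arrays lie between 13.11 and 13.72, above all control arrays.

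Bmp6 encodes a secreted BMP ligand that is best known as the endothelial signal that sets hepcidin, and so iron uptake, from the liver. The upstream sequence of Bmp6 is shown together with those of Eng and Smad6, since these are the genes called in at least 2 of the mutant comparisons for which RefSeq windows were at hand. Each is taken from RefSeq (GRCm38.p6) and ends just before the gene's start, at chr13:38345466-38345715 on the plus strand for Bmp6, chr2:32646345-32646594 on the plus strand for Eng and chr9:64022086-64022309 on the minus strand for Smad6. Capitals mark CAGAC, a short element bound by SMAD3 and SMAD4, on either strand.
Bmp6: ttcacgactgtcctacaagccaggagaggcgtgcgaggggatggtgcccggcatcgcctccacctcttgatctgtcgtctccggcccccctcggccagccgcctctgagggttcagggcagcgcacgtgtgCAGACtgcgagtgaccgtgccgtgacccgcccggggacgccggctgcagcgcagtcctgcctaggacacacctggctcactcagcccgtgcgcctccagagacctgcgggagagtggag
Eng: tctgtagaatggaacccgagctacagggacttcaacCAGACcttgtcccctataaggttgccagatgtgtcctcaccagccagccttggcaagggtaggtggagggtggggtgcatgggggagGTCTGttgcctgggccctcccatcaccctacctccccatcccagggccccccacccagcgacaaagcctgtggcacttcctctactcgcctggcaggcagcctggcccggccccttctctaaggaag
Smad6: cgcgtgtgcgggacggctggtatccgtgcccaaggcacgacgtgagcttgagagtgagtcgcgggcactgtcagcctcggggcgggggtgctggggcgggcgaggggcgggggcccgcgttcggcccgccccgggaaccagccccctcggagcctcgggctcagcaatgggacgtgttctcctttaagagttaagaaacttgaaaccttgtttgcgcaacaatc
The element occurred once upstream of Bmp6, 119 bases before the start, and at 214 and 127 bases before the start of Eng. It was not in the 250-base window of Smad6, which runs into the gene's annotated span. Only the 224 bases before that span are printed. Among the 6 of 10 genes with a window it was also upstream of Tgfbr2 (160 bases) and Id3 (167 and 68 bases) and not upstream of Tgfb1, and 42.2% of all 32851 windows of 250 bases hold it. GGCGCC, a palindrome bound by the SMADs of the BMP branch, was in none of the 6 windows and in 9.6% of all windows. GGAATG, bound by TEAD factors, was upstream of Id3 alone among the 6, 203 bases before its start, and in 12.6% of all windows.

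Bmp6 signal was 13.56, 13.55, 13.70 and 13.50 on the 4 ret mutant arrays, against 8.23, 8.54, 9.05 and 8.68 on the ret control arrays. The groups were more than 4 log2 units apart at their nearest arrays, and the mutants lay within a narrower range than the controls. Bmp6 rose by 4.95 ± 0.16 on the log2 scale (SE, n = 4 each), a 30.9-fold difference (adjusted p = 1.1e-05), the 17th largest absolute change of all genes tested. In cerebrum it was at 13.57, 13.72, 13.66 and 13.71 in R26P mutants, against 9.60, 9.53, 8.90 and 9.16 in R26P controls, a rise of 4.37 ± 0.16 or 20.6-fold (adjusted p = 6.2e-06). In cerebellum it was at 13.27, 13.11, 13.62 and 13.65 in R26P mutants, against 10.87, 10.31, 9.21 and 9.74 in R26P controls. That difference of 3.38 ± 0.34, or 10.4-fold, also passed the test (adjusted p = 7.8e-04). The group means of the 24 arrays ran from R26P mutant cerebrum (13.67 ± 0.07) over ret mutants (13.57 ± 0.09) and R26P mutant cerebellum (13.41 ± 0.26) to R26P control cerebellum (10.03 ± 0.72), R26P control cerebrum (9.30 ± 0.33) and ret controls (8.63 ± 0.34). The step between the mutants and the controls was the only one between neighbouring groups in that order where the ranges of the arrays did not overlap.

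Tgfb1, which encodes the ligand that gives the TGF-β family its name and is made by many cell types, including microglia, differed the other way by values that did not pass the test. It was at 5.10, 5.51, 4.76 and 5.02 in ret mutants, against 5.98, 5.46, 6.61 and 5.46 in ret controls, a difference of -0.78 ± 0.28 (adjusted p = 0.10) with overlapping groups. In R26P cerebrum all 4 mutants, at 7.19, 6.84, 6.16 and 7.22, lay below all 4 controls, at 8.97, 8.70, 7.66 and 7.43. The difference of -1.34 ± 0.40 had an adjusted p of 0.053. It passed the threshold without R26P control cerebrum 4 (-1.59, adjusted p = 0.04) and when arrays were centred on endothelial markers (-1.44, 0.031). In R26P cerebellum Tgfb1 was at 6.69, 6.56, 6.77 and 7.23 in mutants, against 8.61, 7.76, 7.40 and 7.05 in controls, a difference of -0.89 ± 0.32 (adjusted p = 0.10), which passed with endothelial centring (-1.14, 0.022). That centring lowered most genes: it moved the median of all genes to -0.09 in R26P cerebrum and to -0.25 in R26P cerebellum. The mean of 8 microglia and macrophage markers was between 10.45 and 11.39 in ret mutants and between 10.14 and 10.64 in ret controls, between 9.87 and 11.47 in R26P mutant cerebrum and between 10.54 and 11.71 in R26P control cerebrum, and between 9.73 and 11.25 in R26P mutant cerebellum and between 10.67 and 11.38 in R26P control cerebellum. Its part in the Tgfb1 values was not tested.

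Eng encodes endoglin, the coreceptor that presents BMP ligands to the Acvrl1 receptor on endothelial cells. Its signal was 14.57, 14.56, 14.57 and 14.32 in ret mutants, against 13.60, 13.33, 13.51 and 13.82 in ret controls. It was 14.24, 14.67, 14.40 and 14.50 in R26P mutant cerebrum, against 13.34, 13.53, 13.48 and 13.37 in R26P control cerebrum. In cerebellum, R26P mutants had 14.45, 14.44, 14.48 and 14.50, against 13.26, 13.18, 13.48 and 12.97 in R26P controls. No mutant array overlapped with its controls in any of the 3 comparisons, and the 12 mutant arrays of both models lay within 14.24 and 14.67. Eng rose by 0.94 ± 0.12 in ret mutants (1.92-fold, adjusted p = 0.0022), 1.02 ± 0.10 in R26P cerebrum (2.03-fold, 7.4e-04) and 1.24 ± 0.11 in R26P cerebellum (2.37-fold, 4.5e-04). A second probe set of Eng rose as well, by 0.84, 1.31 and 1.32 (adjusted p = 0.003, 0.0016 and 0.0024 over all probe sets). The means ran from ret mutants over both R26P mutant groups to ret controls, R26P control cerebrum and R26P control cerebellum, with a gap between mutants and controls as the only step without overlap.

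Acvrl1, the type I receptor through which endothelial cells respond to circulating BMP ligands, gave different answers from its 2 probe sets. The brighter one was at 11.63, 12.33, 11.98 and 11.95 in ret mutants, against 12.54, 12.71, 12.32 and 12.37 in ret controls, a difference of -0.51 ± 0.16 that did not pass the test (adjusted p = 0.064). Here 1 mutant array, ret mutant 2, lay just above the lowest control, and without it the difference was -0.63 (adjusted p = 0.032). In R26P mutants the brighter probe set differed from controls by -0.06 ± 0.14 in cerebrum (95% interval -0.38 to 0.26) and 0.21 ± 0.15 in cerebellum (-0.15 to 0.57), and neither passed. The dimmer probe set did: it was at 10.54, 10.27, 10.08 and 10.45 in R26P mutant cerebrum, against 9.52, 9.53, 9.76 and 9.91 in R26P control cerebrum, a rise of 0.65 ± 0.13 (adjusted p = 0.017). It was at 10.40, 10.37, 10.36 and 10.81 in R26P mutant cerebellum, against 9.21, 9.22, 9.70 and 9.67 in R26P control cerebellum, a rise of 1.04 ± 0.16 (adjusted p = 0.0063). In both regions the dimmer probe set kept mutants apart from controls, whereas the brighter one overlapped. In ret mutants the dimmer probe set differed by -0.13 ± 0.26 (adjusted p = 0.79). No direction is therefore given for Acvrl1 as a gene, and with the mean of its probe sets the R26P difference was 0.30 in cerebrum (adjusted p = 0.017) and 0.63 in cerebellum (0.0021).

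Tgfbr2 encodes the type II receptor that binds TGF-β itself. It was between 14.27 and 14.50 in ret mutants and between 14.09 and 14.43 in ret controls, between 14.04 and 14.49 in R26P mutant cerebrum and between 13.97 and 14.19 in R26P control cerebrum, and between 14.14 and 14.21 in R26P mutant cerebellum and between 13.94 and 14.15 in R26P control cerebellum. The groups overlapped throughout. The differences were 0.17 (95% interval -0.05 to 0.39), 0.13 (-0.12 to 0.39) and 0.11 (-0.06 to 0.27) in ret mutants, R26P cerebrum and R26P cerebellum, and none passed the test (adjusted p = 0.25, 0.42 and 0.33). The intervals exclude a change of 0.5 on the log2 scale in either direction.

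**Figure D2:**
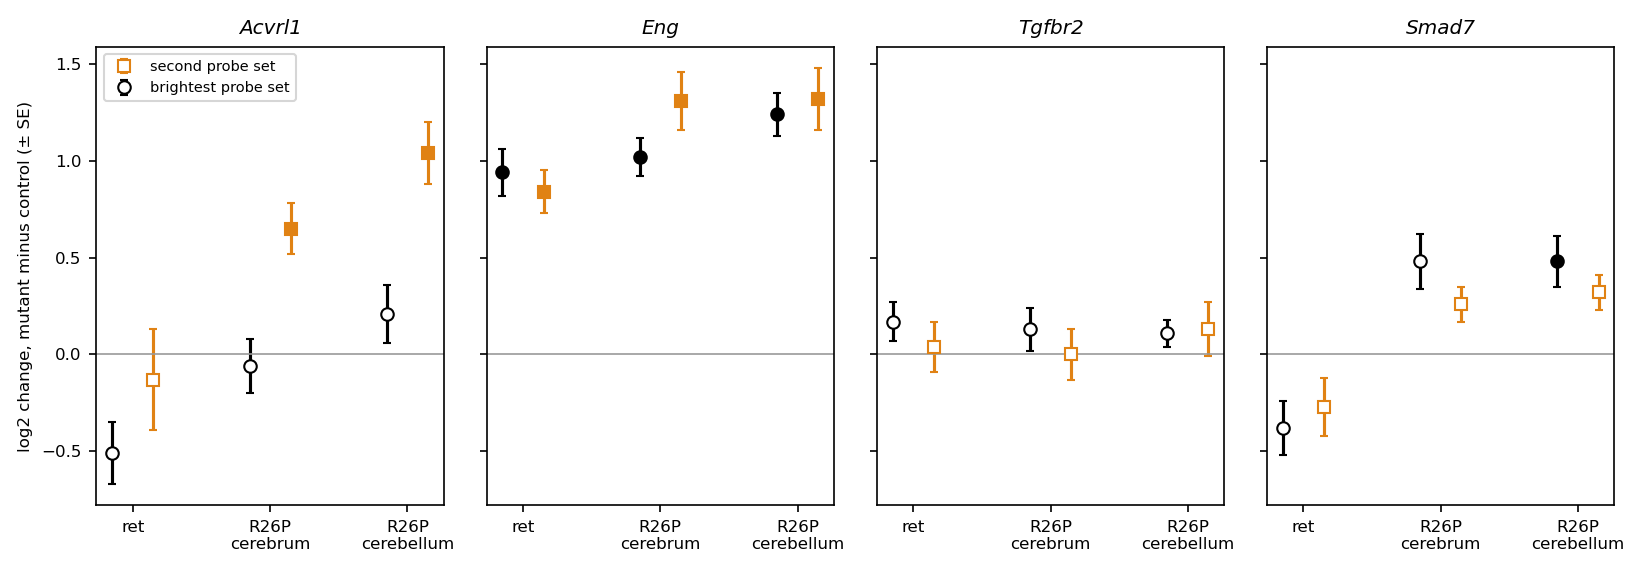
Log2 change, mutant minus control, with its SE (n = 4 each) for the 4 genes that have 2 probe sets past the expression filter, in ret mutants, R26P cerebrum and R26P cerebellum. Black circles are the brightest probe set and orange squares the second one; filled symbols passed the test. Both Eng probe sets are filled in all 3 comparisons, and the Acvrl1 probe sets part in R26P mutants, at -0.06 against 0.65 in cerebrum and 0.21 against 1.04 in cerebellum.

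Smad6 encodes the inhibitory SMAD that mainly restrains the BMP branch and is itself induced by it. In R26P cerebrum it was at 13.02, 12.78, 12.08 and 12.71 in mutants, against 10.16, 10.21, 10.42 and 10.67 in controls. In R26P cerebellum it was at 12.98, 12.63, 12.15 and 12.88 in mutants, against 10.25, 10.28, 10.39 and 10.64 in controls. Both regions showed a clear gap between groups, and mutant 3 was the lowest mutant in each. Smad6 rose by 2.28 ± 0.21 in cerebrum (4.85-fold, adjusted p = 4.7e-04) and 2.27 ± 0.19 in cerebellum (4.84-fold, 3.6e-04). In ret mutants it was at 11.46, 10.99, 10.82 and 10.81, against 10.65, 10.87, 10.57 and 10.50 in ret controls. These groups overlapped at 1 control array, and the difference of 0.37 ± 0.16 did not pass the test (adjusted p = 0.15). Of the alternatives tried, it did so with the sex label as a covariate (0.57, 0.041), a label that Xist contradicts in the controls.

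Smad7 encodes the inhibitory SMAD that acts on both branches by bringing ubiquitin ligases to the receptors. It was at 10.20, 9.89, 10.33 and 9.73 in ret mutants, against 10.59, 10.43, 10.31 and 10.35 in ret controls, a difference of -0.38 ± 0.14 that did not pass (adjusted p = 0.11). In R26P cerebrum it was at 10.66, 10.72, 10.68 and 10.58 in mutants, against 10.16, 10.58, 10.05 and 9.92 in controls. The difference of 0.48 ± 0.14 lay at the threshold (adjusted p = 0.051) and passed without R26P control cerebrum 2 (0.61, 0.0062), the one control that reached the mutants. In R26P cerebellum, with 10.67, 10.64, 10.55 and 10.63 in mutants, against 10.01, 10.47, 10.20 and 9.89 in controls, Smad7 rose by 0.48 ± 0.13 (1.40-fold, adjusted p = 0.04). The groups were apart, but the call was lost when any 1 of 7 arrays was left out: R26P mutant cerebellum 1 (adjusted p = 0.09), 2 (0.09), 3 (0.078) or 4 (0.079), or R26P control cerebellum 1 (0.1), 3 (0.068) or 4 (0.071). With arrays centred on endothelial markers the difference was 0.24 (adjusted p = 0.12), where the median of all genes was -0.25. The second probe set of Smad7 differed by -0.27, 0.26 and 0.32 in ret mutants, R26P cerebrum and R26P cerebellum and passed in none (adjusted p = 0.26, 0.089 and 0.052).

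Id1 and Id3 encode inhibitors of basic helix-loop-helix transcription factors and are direct targets of the BMP branch. Id1 was at 12.18, 12.67, 12.38 and 12.15 in ret mutants, against 13.33, 12.92, 12.68 and 12.90 in ret controls. The highest mutant nearly reached the lowest control, and Id1 fell by 0.61 ± 0.17 on the log2 scale (1.53-fold, adjusted p = 0.045). That call was lost without ret mutant 1 (adjusted p = 0.092), 3 (0.09) or 4 (0.087), or without ret control 1 (0.083), 2 (0.095) or 4 (0.076), and with the Gh level as a covariate (-0.53, 0.34). In R26P cerebrum Id1 was at 13.23, 13.55, 13.52 and 13.32 in mutants, against 13.83, 13.15, 12.80 and 13.30 in controls, a difference of 0.13 (95% interval -0.34 to 0.61, adjusted p = 0.68). In R26P cerebellum it was at 13.56, 13.69, 13.63 and 13.62 in mutants, against 13.79, 13.51, 12.86 and 13.10 in controls, a difference of 0.31 (-0.13 to 0.76, adjusted p = 0.30). The R26P mutants lay inside the wide range of their controls in both regions.

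Id3 overlapped between groups in all 3 comparisons. It was between 13.94 and 14.22 in ret mutants and between 13.84 and 14.34 in ret controls, a difference of 0.03 (95% interval -0.29 to 0.34). It was between 14.07 and 14.60 in R26P mutant cerebrum and between 13.73 and 14.17 in R26P control cerebrum, and between 14.31 and 14.58 in R26P mutant cerebellum and between 13.78 and 14.39 in R26P control cerebellum. The differences of 0.31 ± 0.14 and 0.34 ± 0.14 did not pass the test (adjusted p = 0.16 and 0.15). Beside the rises of Bmp6 by 3.38 to 4.95, the differences of Id1 and Id3 were between -0.61 and 0.34.

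Ccn2 encodes connective tissue growth factor, a matrix protein whose gene responds to TGF-β and to the YAP and TAZ coactivators. It was at 15.01, 15.09, 15.14 and 15.11 in ret mutants, against 11.68, 12.62, 13.11 and 12.20 in ret controls. In cerebrum it was at 14.63, 14.68, 14.74 and 14.68 in R26P mutants, against 12.87, 12.33, 11.92 and 12.31 in R26P controls. In cerebellum it was at 14.56, 14.03, 14.67 and 14.68 in R26P mutants, against 13.17, 12.81, 12.39 and 12.49 in R26P controls. Mutants and controls were apart in each comparison, and, as for Bmp6, the ret and R26P cerebrum mutants varied less than their controls. Ccn2 rose by 2.69 ± 0.28 in ret mutants (6.43-fold, adjusted p = 0.0011), 2.33 ± 0.18 in R26P cerebrum (5.01-fold, 2.3e-04) and 1.77 ± 0.21 in R26P cerebellum (3.41-fold, 0.0018). In the order of group means, ret mutants (15.09 ± 0.06) did not overlap with R26P mutant cerebrum (14.68 ± 0.04), and R26P mutant cerebellum (14.48 ± 0.31) did not overlap with the highest control group, R26P control cerebellum (12.71 ± 0.35).

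**Figure D3:**
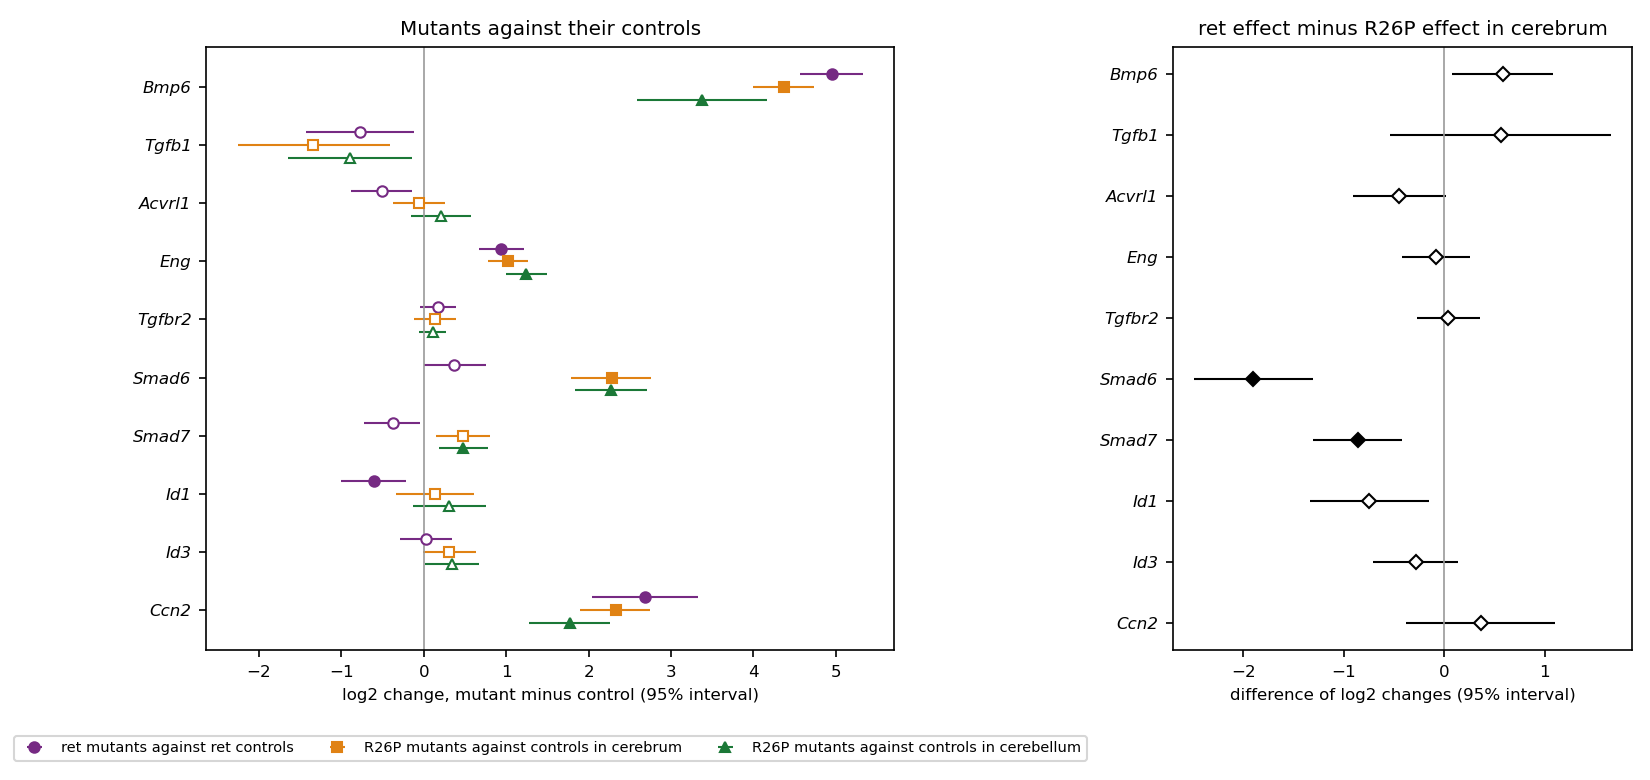
Left, log2 change (mutant minus control) of each gene with its 95% interval in ret mutants, R26P mutant cerebrum and R26P mutant cerebellum. Right, the difference between the ret change and the R26P change in cerebrum with its 95% interval. Filled symbols passed the test over 11243 genes; Bmp6, Eng and Ccn2 are filled in all 3 comparisons on the left, and Smad6 (-1.90) and Smad7 (-0.86) on the right.

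The ret and R26P changes in cerebrum were compared directly as a difference of differences. The models also differ in strain, age, Cre and the active transgene. Ret controls, unlike R26P controls, carried an altered Pdgfb allele, and no region was named for the ret arrays. The parts of these and of the mutant Pdgfb alleles cannot be told apart. Of the 10 genes, 2 differed, with 3.35% of all genes called. The ret change of Smad6 was lower than its R26P change by -1.90 ± 0.28 on the log2 scale (95% interval -2.49 to -1.31, adjusted p = 0.0036). For Smad7 the difference was -0.86 ± 0.21 (-1.31 to -0.42, adjusted p = 0.038). The Smad7 call was lost without any 1 of 12 arrays, with adjusted p of 0.083, 0.063, 0.052 and 0.051 without ret control 1, 2, 3 or 4, of 0.070 and 0.062 without ret mutant 2 or 4, of 0.071, 0.063 and 0.055 without R26P mutant cerebrum 1, 2 or 3, and of 0.069, 0.071 and 0.062 without R26P control cerebrum 1, 3 or 4. The second probe set of Smad7 differed by -0.53 between the models and did not pass (adjusted p = 0.12 over all probe sets). The Smad6 call was kept without each array in turn. Bmp6 (0.58, interval 0.08 to 1.08, adjusted p = 0.17), Id1 (-0.75, -1.34 to -0.15, 0.14), Acvrl1 (-0.45, -0.91 to 0.02, 0.25) and Ccn2 (0.36, -0.38 to 1.10, 0.57) did not pass. With the mean of its probe sets Acvrl1 did, at -0.61 (adjusted p = 0.022). For Eng the difference was -0.08 with an interval of -0.42 to 0.26 (adjusted p = 0.80), and for Tgfbr2 it was 0.04 with an interval of -0.27 to 0.35 (0.91).

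Between brain regions none of the 10 genes passed the test (limma, without pairing of the regions), where 2.12% of all genes were called between wild-type cerebellum and cerebrum, 1.17% between those of R26P controls, 0% between those of R26P mutants and 0.116% in the difference between the R26P changes of the regions. At an unadjusted p below 0.05 there were 3 of the 10 genes in wild type (15.9% of all genes), 0 in R26P controls (14.1%), 1 in R26P mutants (Id1, 0.22), where 621 of all genes (5.52%) reached it, and 1 in the difference (2.75%). In wild type, Bmp6 was at 9.03, 9.60 and 9.39 in cerebellum, against 8.23, 8.92 and 8.46 in cerebrum. The difference of 0.80 ± 0.22 had an adjusted p of 0.17, and of 0.044 with the replicate number as a block, which gave 135 called genes in place of 238. In R26P controls Bmp6 differed by 0.73 ± 0.35 (cerebellum minus cerebrum, adjusted p = 0.40, and 0.078 with the block, which gave 475 called genes in place of 132), and in R26P mutants by -0.25 (95% interval -0.56 to 0.05, adjusted p = 1, and 0.4 with the block). The difference between the R26P changes, cerebellum minus cerebrum, was -0.99 ± 0.39 for Bmp6 (unadjusted p = 0.024, adjusted p = 1, and 0.16 with the block) and -0.56 ± 0.29 for Ccn2 (adjusted p = 1). For Smad7 it was 0.00 with an interval of -0.41 to 0.42, so that the R26P difference of this gene was alike in the regions within about that range. Since the replicate number pairs the regions, the difference was also taken within each pair. It had one sign in all 3 wild-type pairs for 7 of the 10 genes, against 45.3% of all genes, in all 4 pairs of R26P controls for 3 (32.6%) and in all 4 of R26P mutants for 3 (24.1%). Within the wild-type pairs Bmp6 differed by 0.80, 0.67 and 0.93, Eng by -0.24, -0.22 and -0.20 (adjusted p = 0.14 with the block) and Smad6 by -0.31, -0.19 and -0.28 (0.13). Within the pairs of R26P controls Ccn2 differed by 0.29, 0.49, 0.48 and 0.17 (adjusted p = 0.08 with the block) and Tgfb1 by -0.36, -0.94, -0.26 and -0.38 (0.11). In wild type, the lower values of Smad7 and Acvrl1 in cerebellum did not pass the test, with or without the block. Smad7 was at 8.85, 8.78 and 8.60 in cerebellum, against 8.99, 9.05 and 9.32 in cerebrum (adjusted p = 0.19, and 0.24 with the block). Acvrl1 was at 11.93, 11.94 and 11.98 in cerebellum, against 12.10, 12.09 and 12.07 in cerebrum (adjusted p = 0.28, and 0.26 with the block). Marker means of wild-type cerebellum and cerebrum were 11.62 and 11.04 for pericytes and 9.66 and 8.9 for perivascular fibroblasts. They were 12.66 and 11.83 for choroid plexus and ependyma, and 12.52 and 12.64 for endothelium. In R26P controls pericyte markers were at 12.09 and 11.35, and choroid plexus and ependyma markers at 13.01 and 12.02. Their part in the region differences was not tested.

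The same arrays measured 55 other genes of the pathway, out of 74 listed and 69 found on the array. In ret mutants 10 of these rose and 3 fell, in R26P cerebrum 12 rose and 9 fell, and in R26P cerebellum 14 rose and 7 fell, with medians of 0.12, 0.02 and 0.02 against 0.01, 0.01 and 0.00 over all genes. Of all genes tested, 8%, 8.35% and 6.94% rose and 8.63%, 10.3% and 8.7% fell in the same comparisons. These lists too were written with earlier results of these data known. Among 10 other ligands tested, 3 rose and 1 fell in ret mutants, 4 rose and 3 fell in R26P cerebrum, and 3 rose and 2 fell in R26P cerebellum. Bmp4, a ligand close to Bmp2, rose in all 3, by 3.09 ± 0.33 (8.52-fold, adjusted p = 0.0012), 2.37 ± 0.19 (5.18-fold, 2.6e-04) and 1.47 ± 0.23 (2.78-fold, 0.0057). Tgfb2, a TGF-β isoform, rose by 1.44, 2.11 and 2.03. Bmp2 rose in R26P cerebrum (2.56) and cerebellum (2.02), and its value in ret mutants was 0.88 (adjusted p = 0.12). Bmp5 fell by 3.72 in ret mutants and fell by 3.88 in R26P cerebrum and fell by 3.85 in R26P cerebellum, to means of 3.13, 3.70 and 4.95 in ret mutants, R26P mutant cerebrum and R26P mutant cerebellum, against 6.85, 7.58 and 8.80 in their controls. All ret mutant arrays of Bmp5 lay below the filter level of 4, so its fall there has no exact size. In R26P mutant cerebrum its arrays ran from 3.05 to 4.55, so that size is not exact either. Ligand genes of the family thus moved in both directions on the same arrays. The genes of the circulating ligands of the Acvrl1 receptor, Gdf2 and Bmp10, did not pass the filter, at 3.56 and 2.17 at most.

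Among 9 other receptors and coreceptors, 1 rose in ret mutants (Tgfbr3, which encodes betaglycan, 0.79), 1 fell in R26P cerebrum and 1 rose and 1 fell in R26P cerebellum. The one that fell was Bmpr1a, a type I BMP receptor, by 1.86 ± 0.22 in cerebrum (adjusted p = 0.0014) and 1.66 ± 0.25 in cerebellum (0.0046), and the one that rose was Acvr1, another type I receptor (0.38). Bmpr2, the type II receptor of the BMP branch, differed by 0.03, 0.18 and 0.18 and passed in none (adjusted p = 0.80, 0.14 and 0.093). Of 13 other SMADs and modifiers, 2 rose and 2 fell in ret mutants, 3 rose and 0 fell in R26P cerebrum, and 5 rose and 0 fell in R26P cerebellum. Smad2, which carries the TGF-β signal, rose by 0.77, 0.65 and 0.59, and Bambi, a receptor-like protein without a kinase that dampens signalling, by 0.73, 0.87 and 0.63. The 2 that fell in ret mutants were Pmepa1, a TGF-β-induced gene whose product restrains SMAD signalling (-1.25 ± 0.17, adjusted p = 0.0032), and Smad4, the SMAD that both branches share (-0.58 ± 0.07, 0.0019). In R26P cerebrum and cerebellum Pmepa1 differed by -0.82 and -0.75 and Smad4 by -0.16 and -0.15, and none of these passed. Zfyve9, whose product presents SMADs to the receptors, rose in R26P cerebrum (0.62) and cerebellum (0.68), and Smurf2, a ubiquitin ligase gene, in R26P cerebellum (0.38). Smad1 and Smad5, which carry the BMP signal, passed in none of the 3.

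Of 14 antagonists and latency genes, 2 rose and 0 fell in ret mutants, 2 rose and 3 fell in R26P cerebrum, and 3 rose and 3 fell in R26P cerebellum. Ltbp2, a matrix protein of the latent TGF-β binding family, had means of 8.87 in ret mutants and 4.92 in ret controls, 9.07 in R26P mutant cerebrum and 4.57 in R26P control cerebrum, and 8.12 in R26P mutant cerebellum and 3.54 in R26P control cerebellum, rises of 3.96, 4.50 and 4.58. Its R26P control arrays ran from 2.68 to 5.73 in cerebrum and from 2.68 to 4.58 in cerebellum, so the R26P sizes are not exact. Bmper, which binds BMPs outside the cell, had means of 6.63 and 5.49 in R26P mutant cerebrum and cerebellum, against 2.51 and 2.55 in R26P controls. It was called in both regions, but its control arrays all lay below the filter level of 4 and it passed the filter only through mutant arrays, so no size is given. Nrros, which anchors latent TGF-β on microglia and macrophages, rose in ret mutants by 1.14 (adjusted p = 0.0095). Ltbp1, another latent TGF-β binding protein gene, fell by 1.26 in R26P cerebrum and fell by 1.24 in R26P cerebellum. Twsg1, which encodes an extracellular BMP binding protein, fell by 1.19 in R26P cerebrum, and Itgav, an integrin gene, fell by 1.18 in R26P cerebellum. Itgav was lower in R26P cerebrum too, at a mean of 11.02 in mutants and 12.20 in controls. Its arrays there ran from 10.86 to 11.28 and from 12.14 to 12.24. Of 9 other responsive genes, 2 rose in ret mutants, 3 rose and 2 fell in R26P cerebrum, and 2 rose and 1 fell in R26P cerebellum. Atoh8, a transcription factor gene that responds to BMP in endothelium, rose by 1.59, 3.08 and 3.01, to 6.58 ± 0.81 in ret mutants, 8.04 ± 0.04 in R26P mutant cerebrum and 7.74 ± 0.23 in R26P mutant cerebellum, against 4.99, 4.96 and 4.72 in their controls, with overlap of the groups in the ret model alone. The rise of Ccn1, a relative of Ccn2 that shares its YAP response, was called in ret mutants (1.96 ± 0.39, 3.89-fold, adjusted p = 0.015), and its values of 0.63 and 0.52 in R26P cerebrum and cerebellum did not pass. Hey1, a transcription factor gene of Notch and BMP signalling, rose in R26P cerebrum (0.74) and cerebellum (0.76). Tmem100, which responds to BMP through Acvrl1 in endothelium, differed the other way from Atoh8. Its means were 6.69 in ret mutants and 7.45 in ret controls (-0.75, adjusted p = 0.15), 7.47 in R26P mutant cerebrum and 8.46 in R26P control cerebrum (-0.98, 0.015) and 7.98 in R26P mutant cerebellum and 8.72 in R26P control cerebellum (-0.75, 0.22), so it was called in R26P cerebrum alone of the 3. Id4, which is abundant in astrocytes, fell by 2.46 and 1.51 in R26P cerebrum and cerebellum, beside the lower astrocyte markers given above, whose part was not tested. In the difference between the models, where 3.35% of all genes were called, 3 of the 55 genes were. These were Twsg1 (1.25), Itgav (0.87) and Gdf10, which lay below 4 on every array of that comparison and is given no size. Between regions 4 rose and 1 fell in wild-type cerebellum against cerebrum (2.12% of all genes called), with Junb (1.64) and Itgb8 (1.35) among the rises. In R26P controls (1.17% of all genes called) Bmp5 was higher in cerebellum (1.22), and Chrdl1, with all cerebellar arrays below 4, was lower.

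**Figure D4:**
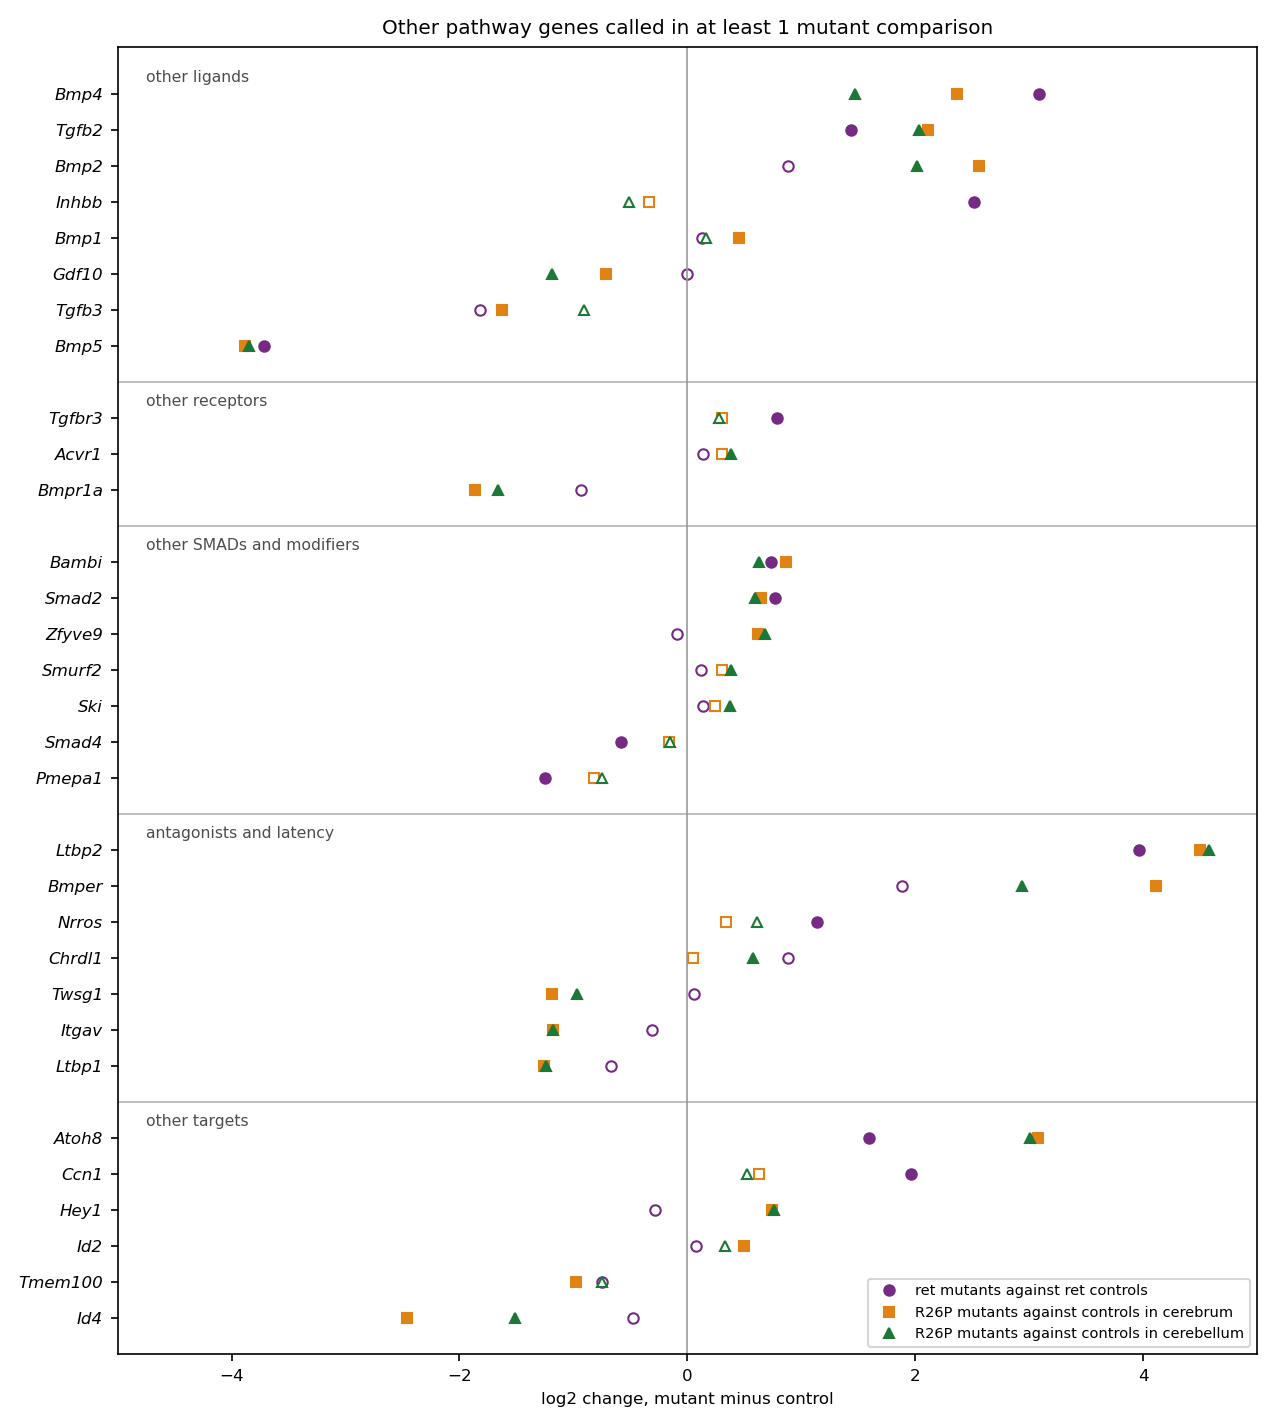
Log2 change, mutant minus control (n = 4 arrays each), of the other pathway genes that were called in at least 1 of the 3 mutant comparisons, grouped by role. Circles are ret mutants, squares R26P cerebrum and triangles R26P cerebellum; filled symbols passed the test. Ligands lie on both sides of 0, from Bmp5 at -3.88 to -3.72 to Bmp4 at 1.47 to 3.09. Sizes are not exact where a group lay below 4 on every array, as for the called Bmp5 in ret mutants, Gdf10 and Bmper in both R26P regions and Chrdl1 in R26P cerebellum. The same holds where only some arrays of a group lay below 4, as for Bmp5 in R26P cerebrum and Ltbp2 in both R26P regions.

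Across the 24 arrays of both models, the genes whose signal followed each changed gene most closely were found by Pearson correlation over all genes tested, as a description. These arrays fall into 6 groups of 4, so a high correlation mostly reflects the group means, and the correlation after group means were removed is given beside it. Bmp6 was followed most closely by Slco1a5 (0.981, and 0.39 after removal) and Ajuba (0.976 and 0.70). The genes nearest Eng were Apln (0.975 and 0.70), which encodes the endothelial peptide apelin, and Cx3cl1 (0.972 and 0.60), a chemokine gene. For Ccn2 they were Fgfbp1 (0.956 and 0.14) and Htra1 (0.955 and 0.40), for Smad6 Gm2102 (0.957 and 0.70) and Cdc20 (0.955 and 0.54), for Smad7 Zfyve9 (0.805 and 0.64) and Klf9 (0.802 and 0.58), and for Id1 Apba3 (0.923 and 0.79) and Sertad1 (0.914 and 0.74). Among the 45 pairs of the 10 genes, correlations after removal of group means ran from -0.35 to 0.78 with a median of 0.15. The strongest pairs were Bmp6 with Ccn2 (0.78), Id1 with Id3 (0.75), Eng with Tgfbr2 (0.73) and Acvrl1 with Id1 (0.70). After removal of group means the mean of the endothelial markers correlated at 0.77 with Tgfbr2, 0.73 with Id3, 0.58 with Eng and 0.57 with Smad7. Its correlation was 0.42 with Acvrl1, 0.38 with Id1, 0.30 with Bmp6, 0.09 with Ccn2, 0.01 with Tgfb1 and -0.24 with Smad6. The mean of the pericyte markers correlated at -0.11 with Tgfbr2, 0.10 with Id3, -0.33 with Eng and -0.10 with Bmp6. With the other members it lay between -0.26 (Tgfb1) and 0.07 (Acvrl1). For the means of the remaining marker lists the range was wider. It ran from -0.53 (Smad7 with microglia and macrophage markers) and -0.51 (Eng with smooth muscle markers) to 0.41 (Ccn2 with perivascular fibroblast markers). Arrays of the same number in the 2 regions of R26P share deviations, so these points are not independent.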

How the data were processed

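RNA of brain microvascular fragments was amplified from about 100 ng by the Affymetrix small-sample protocol to biotinylated cRNA, per the labels' protocols. The deposited values are log2 signals that the authors made with GCRMA 2.6.0 under R 2.4.1, per the submitters' processing notes. They were used as deposited. Wild-type arrays had been normalized separately. Array signals have no read depth, so precision is limited by how many arrays a group holds.

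Of 45101 probe sets, 34958 were paired with 1 gene, 932 with several and 9211 with none, by the array's annotation, which can be old. The identifiers of 34754 of the first were found in the reference, and 0 symbols were replaced. A probe set that shares sequence with a related gene is not separated here. Two-sided tests were made with the functions lmFit and eBayes of limma 3.58.1 (R 4.3.3), with only the compared groups in each fit and 1 probe set per gene, with Benjamini-Hochberg adjustment over 11243 genes. Second probe sets were tested in a fit of all probe sets past the filter. The procedure was tested on simulated data. Values are log2 signals or log2 changes with SE, and SD where a group mean is given.

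The 10 genes, the pathway lists and the marker lists were chosen with earlier results of these data known. The text names, of the pathway lists, up to 4 called genes per list and mutant comparison, those with the largest change and no overlap between groups, and up to 2 per region comparison. Bmpr2, Smad1, Smad5, Gdf2 and Bmp10, Atoh8 in ret mutants and Itgav in R26P cerebrum were named after their values were seen. So were the 3 genes of the difference between models and the other genes of the plot of pathway genes. Groups were taken from the labels, which call the arrays biological replicates. Replicate numbers were not a block in the tests given first. After group means were removed, a cerebellum array and the cerebrum array with its number had a correlation of 0.344 to 0.840, each best with its own number, so the number pairs the regions. Between mutants and controls the correlations were -0.199 to 0.337 and it does not. Promoter windows come from RefSeq tables on GRCm38.p6. Figures were drawn with matplotlib 3.10.9.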

Additional observations from a re-analysis of the deposited data

Results flagged for a closer look

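On the array of ret mutant 4, Eng was at 14.32, below the other ret mutants, which lay at 14.56 to 14.57. Its gap to the nearest of them was 0.96 of the group's range, above Dixon's 95% critical value for 4 arrays. It was the 1 case in 60 checks of a gene in a group, and chance gives about 1 in 20. That array still lay above all ret controls for Eng.

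For 2 genes the change of mutants against controls differed between the models when the difference itself was tested. The ret change minus the R26P change in cerebrum was -1.90 on the log2 scale for Smad6, which differed by 0.37 in ret mutants and rose by 2.28 in R26P mutants. It was -0.86 for Smad7, which differed by -0.38 in ret mutants and 0.48 in R26P mutants. The Smad7 call was lost in 14 of 25 alternative fits, and its second probe set did not pass (-0.53, limma, adjusted p = 0.12).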

How the results depend on the processing

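Counts of genes called moved with the settings. Without the expression filter, with 18194 genes tested, they were 1229 in ret mutants (1870 with it), 1390 in R26P cerebrum (2097), 1081 in R26P cerebellum (1758), 58 between wild-type regions (238), 47 between regions of R26P controls (132), 1 between those of R26P mutants (0), 6 in the difference between R26P regions (13) and 177 in that between models (377), where 1 of the 10 genes was called, in place of 2. With the replicate block they were 987 in ret mutants, 1278 in R26P cerebrum, 135 in wild type (1 of the 10 genes, Bmp6), 475 in R26P controls, 29 between R26P regions and 239 between models; with the block the Id1 call in ret mutants (adjusted p = 0.11) and the Smad7 call in R26P cerebellum (0.08) were lost, and the block changed no other call of the 10 genes. The sex label gave 1051 in ret mutants and the Gh level 821 there and 1146 in R26P cerebellum. Centring on endothelial markers gave 3654 in R26P cerebellum and 139 between models. Averaging all probe sets of a gene gave 68 in R26P controls and 4 between R26P regions, an Acvrl1 difference of 0.30 in place of -0.06 in R26P cerebrum and of -0.61 (adjusted p = 0.022) between models, and a filter on a mean above 6, with fewer genes, gave 0 between R26P regions, with the cause not tested. Without both arrays of R26P mutant 3 the counts were 15 between regions of R26P mutants and 6 between R26P regions. Without arrays with Gh above 8, chosen after the data were seen, they were 919 in ret mutants (1 of the 10 genes), 237 in R26P cerebrum (1), 1117 in R26P cerebellum, 89 in wild type, 24 in R26P controls, 1 in R26P mutants, 7 between R26P regions and 130 between models (1), with fewer arrays. Of the genes called, 48.1% rose in ret mutants (46.3% after renewed quantile normalization, 40.6% with endothelial centring), 44.8% in R26P cerebrum (55.3%, 22.7%), 44.4% in R26P cerebellum (57.2%, 8.26%), 61.5% between R26P regions (57.1%, 46.2%) and 49.9% between models (34.8%, 79.9%); endothelial centring moved the median of all genes to -0.25 in R26P cerebellum and -0.15 between R26P regions. Leaving out 1 array at a time gave 1153 (ret control 2) to 1931 in ret mutants with 3 to 5 of the 10 genes, 1387 (R26P control cerebrum 1) to 1945 in R26P cerebrum with 4 to 5, 1117 (R26P mutant cerebellum 3, with 1143 without R26P control cerebellum 1) to 1572 in R26P cerebellum with 4 to 5, 12 (cerebellum 3) to 159 (cerebellum 1) in wild type, 48 (cerebellum 4) to 193 in R26P controls, 0 to 42 (cerebrum 3) in R26P mutants and 6 (mutant cerebrum 2) to 14 between R26P regions, each with 0 of the 10 genes, and 127 (ret control 1) to 611 (R26P mutant cerebrum 4) between models with 1 to 2. Bmp6, Eng and Ccn2 in the 3 mutant comparisons and Smad6 in both R26P regions kept direction and call in every such fit. Without the filter the calls of Id1 in ret mutants (adjusted p = 0.11) and of Smad7 in R26P cerebellum (0.088) and between models (0.072) were lost. Tgfb1 and Smad7 in R26P cerebrum passed among genes with a mean above 6 (0.041 and 0.045) and with an intensity trend and robust prior (0.041 each), and Smad7 also after renewed quantile normalization (0.033). Acvrl1 in ret mutants passed with an intensity trend and robust prior (adjusted p = 0.048) and after renewed quantile normalization (0.045).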
